A study of Oryza sativa with 36 samples.

Results

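The response of the PA64s rice leaf to fertiliser was measured on 6 Affymetrix rice arrays, 3 from fertilised and 3 from unfertilised seedlings, of 36 arrays in the whole series. PA64s is, as background, a male-sterile rice line and the mother of the hybrid LYP9, whose father is 9311. Per the labels, seedlings grew for 5 days in a nutrient soil mix, and 15 of each variety were then set into each of 12 barrels of poor raw soil. At 14 days of age, 6 of the barrels received 10 g urea and 10 g compound fertiliser, which the labels call nutrient-sufficient (or heterotic), and the other barrels received none (nutrient-deficient, or non-heterotic). Both PA64s leaf groups thus shared genotype, tissue, soil and age at treatment, and differed in the fertiliser and in the barrels they grew in. The leaf arrays of 9311 and LYP9 under the same treatments, 6 each, are used for comparison. The labels give neither the time from fertilising to harvest nor the origin of replicates 1 to 3, so p-values measure the spread between these arrays, which may be technical. The members are all probe sets of the array that are not controls, 57194 of 57381, and 34316 of them passed the filter on low values and were tested.

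Urea is split by urease to ammonium, which glutamine synthetase and glutamate synthase (GOGAT) join to carbon skeletons as glutamine and glutamate. Leaves hold most of their nitrogen in chloroplast proteins. Nitrogen-poor leaves commonly hold less chlorophyll, and they recycle nitrogen from older proteins and from purines, whose breakdown runs through allantoin. Compound fertiliser supplies nitrogen, phosphate and potassium together, so the treatment was not one of nitrogen alone.

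On the values as deposited, more transcripts were called higher than lower in fertilised PA64s leaf. Of the 34316 probe sets tested, 2652 (7.73%) passed limma's test after Benjamini-Hochberg adjustment (adjusted p under 0.05, called below), 1720 of them higher (5.01%) and 932 lower (2.72%) in the fertilised leaf. At an unadjusted p under 0.05 the number was 8362. Among the calls, 640 rises and 270 falls were 2-fold or more, and 129 rises and 38 falls were 4-fold or more. The split of 64.9% higher depended on scaling: it was 49.6% after centring the arrays on their medians (1274 higher, 1292 lower) and 46.1% after quantile normalization (1271 higher, 1486 lower), and the median change over all probe sets was 0.07 on the log2 scale as deposited and -0.01 under either alternative. The count was 1610 with the 6 PA64s arrays fitted alone and 4072 with all 36 arrays. It fell to 1160 without fertilised array 3, to 1428 without unfertilised array 3 and to 1604 without unfertilised array 2. Array medians were 74.9, 69.3 and 73.5 intensity units in the fertilised arrays and 70.5, 68.4 and 67.6 in the unfertilised ones. Correlations across probe sets ran from 0.977 to 0.987 between arrays of the same group and from 0.956 to 0.977 between the groups. Since each array is a bulk leaf extract, a change in the number of cells of a type and a change in RNA per cell cannot be told apart in any result below.

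**Figure D1:**
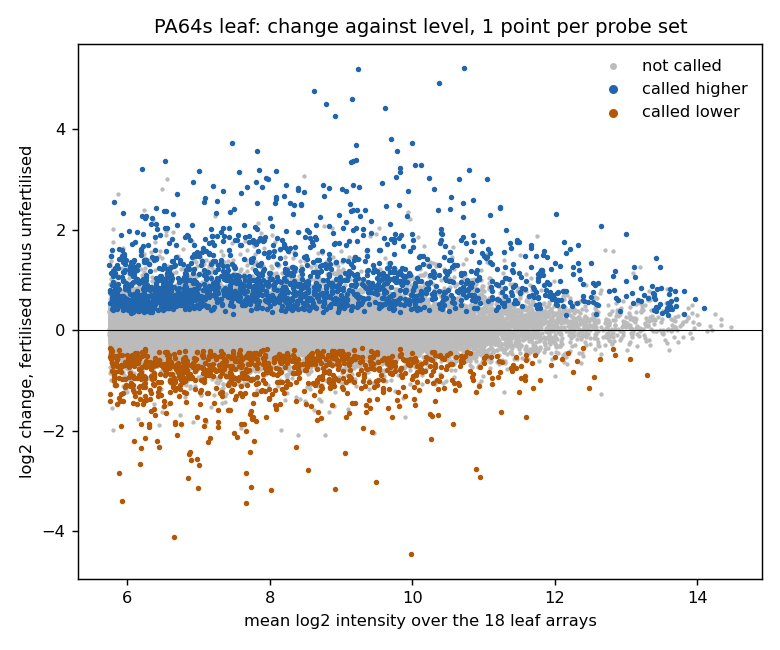
Log2 change between fertilised and unfertilised PA64s leaf (vertical axis) against the mean log2 intensity over the 18 leaf arrays (horizontal axis), 1 point for each of the 34316 probe sets tested. Blue points are the 1720 called higher, orange points the 932 called lower and grey points those not called.

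The arrays carried leaf markers as labelled. The mean of 6 leaf markers (light-harvesting proteins, photosystem I subunits, Rubisco and its activase) ran from 12.69 to 13.19 log2 units in the unfertilised and from 13.30 to 13.55 in the fertilised PA64s leaf, against 5.68 to 6.37 in PA64s root. Of 4 root markers the mean ran from 5.94 to 5.99 in unfertilised leaf, from 6.27 to 6.69 in fertilised leaf and from 9.57 to 10.56 in root. The silicon efflux transporter Lsi2 (LOC4331328), a root gene, lay between 3.52 and 4.47 on the leaf arrays, below the filter level of 5.75, and between 9.78 and 11.63 in root. The listed marker RIXI (LOC4351194) lay between 3.11 and 3.69 in leaf and only between 4.90 and 5.80 in root. Its mean was below the filter level in both tissues, so it marks root poorly on these arrays. Lsi2 and RIXI thus enter the leaf mean of the root markers from below the filter level. The silicon channel Lsi1 (LOC4330713), also a root gene, was higher in fertilised leaf by 0.98 ± 0.26 on the log2 scale (adjusted p = 0.0324), and the root potassium channel AKT1 (LOC4326245) was at 0.85 ± 0.38 (adjusted p = 0.187). Lsi1 lost its call without unfertilised array 1, 2 or 3 or fertilised array 1 or 3 (adjusted p 0.0531 to 0.112). Whether the higher root marker level plays a part in other rises was not tested.

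The largest named rise was that of BURP2 (LOC4338119), a gene of the plant-specific BURP domain family. It read 6.62, 8.90 and 7.07 in the 3 unfertilised arrays and 12.53, 12.15 and 12.67 in the fertilised ones, on the log2 scale, a 30.3-fold rise (log2 4.92 ± 0.49, adjusted p = 3.54e-05). The groups lay more than 3 log2 units apart at their nearest arrays, and its other probe set read 4.60 ± 0.43 higher. It was the only called gene of 5 BURP genes measured. RBBI3.3 (LOC9271230), a Bowman-Birk proteinase inhibitor, rose 8.97-fold from 6.73, 5.98 and 6.29 to 9.69, 9.23 and 9.57 (log2 3.16 ± 0.29, adjusted p = 1.99e-05). Pi21 (LOC4335725), a proline-rich protein known from blast resistance breeding, rose 5.48-fold from 7.56, 9.53 and 9.43 to 11.28, 10.47 and 12.12 (adjusted p = 0.00407, and 0.0526 with the 6 PA64s arrays alone), and CRSH2 (LOC4337890), a plastid enzyme that makes the alarmone ppGpp, rose 5.24-fold (adjusted p = 0.024). Further rises among the 20 largest were those of pla2-II (LOC4332319) (5.67-fold), a phospholipase A2, of Melibiase (LOC4348988) (5.27-fold), an alpha-galactosidase, and of pinA (LOC9268662) (5.29-fold). The germin-like gene GER5 (LOC4345763) read 6.19, 5.99 and 6.07 unfertilised and 8.67, 6.71 and 11.09 fertilised (log2 2.74 ± 0.67, adjusted p = 0.0216). Its fertilised arrays spread over more than 4 log2 units, the lowest close to the unfertilised group. A peroxidase (LOC4344277) rose 4.96-fold (adjusted p = 0.0352). Calls were lost without unfertilised array 2 or 3 or fertilised array 1 or 3 (adjusted p 0.0835 to 0.103) for CRSH2, without unfertilised array 1, 2 or 3 (adjusted p 0.0509 to 0.0639) for GER5 and without unfertilised array 2 or 3 or fertilised array 1, 2 or 3 (adjusted p 0.0693 to 0.137) for the peroxidase.

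Among all probe sets, most of the largest changes had no gene name in the annotation used. The largest rise, chosen after its values were seen, was that of LOC4342395, from 7.95, 7.94 and 7.57 to 13.32, 13.03 and 12.74 (log2 5.21 ± 0.33, adjusted p = 4.53e-07). The largest fall was that of LOC4337229, from 11.87, 12.15 and 12.42 to 7.45, 7.89 and 7.71 (log2 -4.46 ± 0.22, adjusted p = 2.21e-08), and a further probe set of the same gene read -4.12 ± 0.31. Both genes separated the groups by more than 3 log2 units on every array. Of the 1720 probe sets called higher, 197 (11.5%) belonged to a named gene, as did 121 (13.0%) of those called lower, against 7.43% of all tested. Counted with 1 probe set per gene, 972 of 14646 genes rose (6.64%) and 563 fell (3.84%), and among the 2075 named genes 163 rose and 104 fell.

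**Figure D2:**
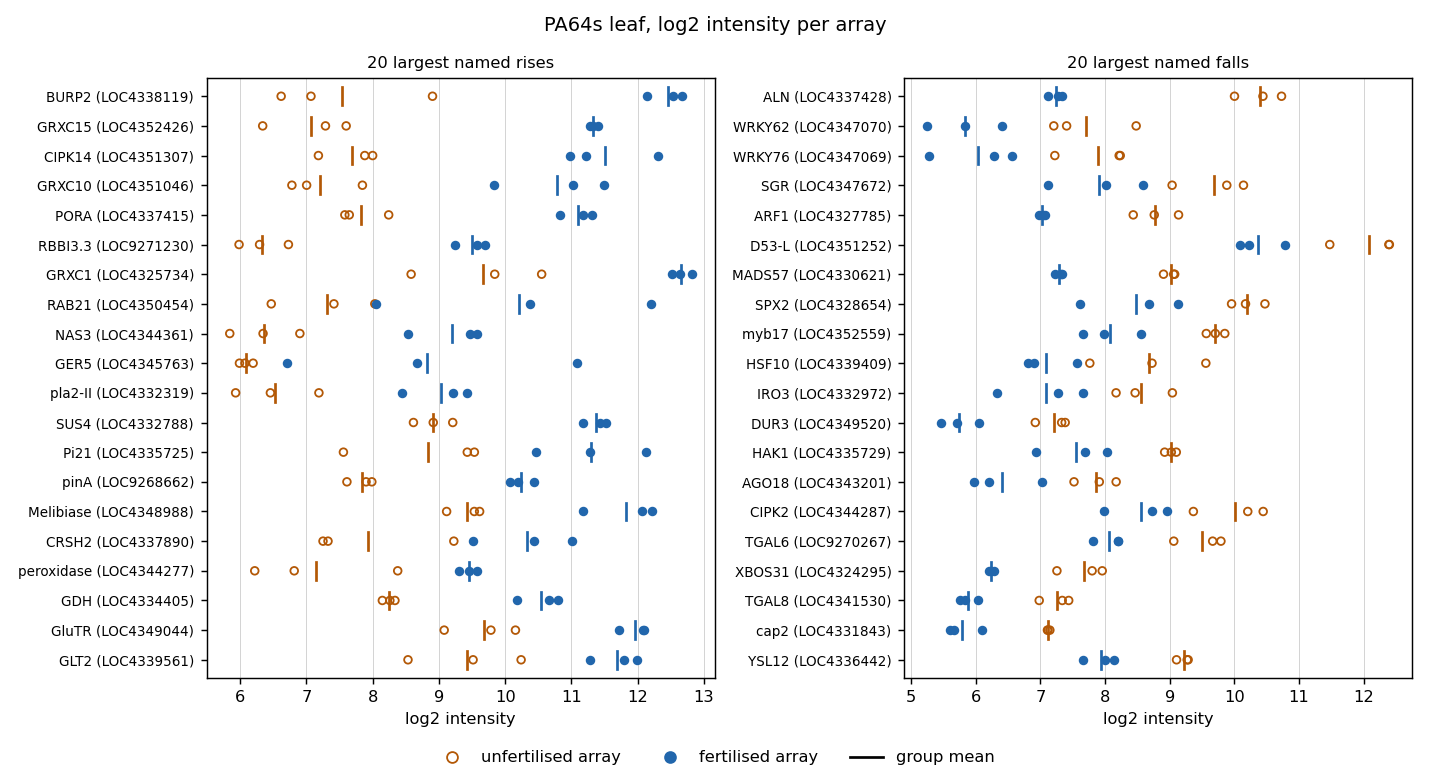
Log2 intensity (horizontal axis) in each PA64s leaf array of the 20 named genes with the largest rise (left) and the 20 with the largest fall (right). Open orange circles are unfertilised arrays, filled blue circles fertilised arrays and vertical ticks group means. In RAB21 the lowest fertilised array (8.05) touches the highest unfertilised one (8.03), while ALN, BURP2 and GRXC15 leave a wide gap.

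Nitrogen genes moved both ways: of 25 measured, 3 rose and 4 fell (3 and 5 under either other scaling), against 6.64% higher and 3.84% lower over all 14646 genes. The counts of the lists below stand beside the same shares, and several lie near them, among them 1 rise and 1 fall in 22 genes. The lists were matched by gene name, and named genes were called more often: of 2075 measured, 163 rose and 104 fell. The lists were also chosen with earlier results of these data known, so a count above these shares is no test of a list. The largest named fall of the whole leaf response was that of ALN (LOC4337428), allantoinase, which opens the allantoin ring in purine nitrogen recycling. It read 10.00, 10.44 and 10.73 unfertilised and 7.27, 7.34 and 7.11 fertilised, an 8.88-fold fall (log2 -3.15 ± 0.22, adjusted p = 1.7e-06). The purine enzyme upstream, xanthine dehydrogenase XDH (LOC4333171), was at 0.13 ± 0.22 (adjusted p = 0.755). DUR3 (LOC4349520), the high-affinity urea transporter, read 6.92, 7.33 and 7.38 unfertilised and 5.71, 6.05 and 5.46 fertilised, so that the fertilised group lay near or below the filter level (log2 -1.47 ± 0.24, adjusted p = 0.00204). ALN and DUR3 both kept their calls when any array was left out. The groups did not overlap in either gene, but the rule for the 20 largest rises and falls required this. Arrays did not overlap in 1707 of the 1720 probe sets called higher and 926 of the 932 called lower. Over all 34316 tested, they did not overlap in 6233 on the higher and 3522 on the lower side.

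The glutamine synthetase isoforms went different ways. Cytosolic GLN1;1 (LOC4330649), the main isoform of rice leaf recycling, fell from 11.20, 11.34 and 10.90 to 10.21, 9.67 and 9.99 (log2 -1.19 ± 0.23, adjusted p = 0.00546). GLN1;2 (LOC4332108), the isoform tied to ammonium assimilation in roots, rose from 9.20, 9.12 and 8.73 to 10.20, 9.60 and 9.97 (log2 0.91 ± 0.20, adjusted p = 0.0114). Plastid GLN2 (LOC4337272), which fixes photorespiratory ammonium, was at 0.47 ± 0.16 (adjusted p = 0.0817), and its partner Fd-GOGAT (LOC4344164) at -0.29 ± 0.18 (adjusted p = 0.337). The levels of the isoforms cannot be set against each other, since each has its own probes.

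The NADH-dependent glutamate synthase GLT2 (LOC4339561) read 8.53, 9.51 and 10.24 unfertilised and 11.28, 11.99 and 11.79 fertilised, a 4.78-fold rise (log2 2.26 ± 0.61, adjusted p = 0.0325). Glutamate dehydrogenase GDH (LOC4334405) (also listed as GDH1), which releases or binds ammonium, rose 4.91-fold from 8.34, 8.26 and 8.15 to 10.18, 10.66 and 10.79 (adjusted p = 0.000129). The GDH arrays were tight within each group, whereas the unfertilised GLT2 arrays spread over more than 1 log2 unit. Of the ammonium transporters, AMT1;2 (LOC4330008) fell by 0.60 ± 0.17 on the log2 scale (adjusted p = 0.0413), and AMT3;2 (LOC4334717) was at -1.13 ± 0.36 (adjusted p = 0.0671). Most others lay above 0 without a call. AMT2;1 (LOC4339064) was at 0.72 ± 0.26 (adjusted p = 0.105), AMT2;3 (LOC4327433) at 0.30 ± 0.16 and AMT3;1 (LOC4324937) at 0.21 ± 0.20. AMT1 (LOC4336365) was at 0.17 ± 0.30 and AMT2;2 (LOC4327434) at -0.09 ± 0.16. For nitrate, the transporter NRT2.3 (LOC4324249) was at -0.56 ± 0.18 (adjusted p = 0.0632), with its fertilised group below the filter level, and the reductase NIA1 (LOC4345795) at -0.37 ± 0.84 (adjusted p = 0.828). The related NRT2.2 (LOC4328052) was at 0.35 ± 0.22 (adjusted p = 0.347) and NAR2.2 (LOC4336175) at -0.40 ± 0.19 (adjusted p = 0.211). The 18 nitrogen genes without a call ranged from -1.13 to 0.75, and the median of the 25 was 0.13, against 0.03 over all genes. The calls ended without unfertilised array 1 or 2 or fertilised array 1, 2 or 3 (adjusted p 0.0505 to 0.116) for GLT2, without unfertilised array 3 or fertilised array 1 (adjusted p 0.0502 to 0.0585) for GLN1;2 and without unfertilised array 2 or 3 or fertilised array 2 or 3 (adjusted p 0.0912 to 0.163) for AMT1;2.

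Chlorophyll synthesis genes were called in 1 direction: of 12 measured, 6 rose and 0 fell, and the median log2 change was 0.68. After median centring the rises numbered 5, and after quantile normalization 4. PORA (LOC4337415), the light-dependent protochlorophyllide reductase known from greening seedlings, changed most. It read 7.58, 8.24 and 7.65 unfertilised and 10.82, 11.31 and 11.17 fertilised, a 9.71-fold rise (log2 3.28 ± 0.30, adjusted p = 1.63e-05), and its relative PORB (LOC4349004) rose 1.48-fold (adjusted p = 0.0192). GluTR (LOC4349044), the glutamyl-tRNA reductase that commits glutamate to tetrapyrrole synthesis, rose 4.89-fold from 9.78, 10.15 and 9.08 to 12.10, 12.08 and 11.71 (adjusted p = 0.000331). The lowest fertilised array of both PORA and GluTR lay more than 1 log2 unit above the highest unfertilised one.

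The other called synthesis genes act at several steps of the pathway. CHLH (LOC4332690), the large subunit of magnesium chelatase, rose 2.48-fold (log2 1.31 ± 0.32, adjusted p = 0.0213). CHLP (LOC4330711), the geranylgeranyl reductase that makes the phytol tail, rose 2.52-fold from 11.67, 11.93 and 10.86 to 12.89, 12.80 and 12.78 (adjusted p = 0.00674), and the uroporphyrinogen synthase HEMD (LOC4331869) rose 1.37-fold (adjusted p = 0.0443). The 6 synthesis genes without a call ranged from -0.34 to 1.04. Among them the porphobilinogen synthase HEMB (LOC4341997) was at 1.04 ± 0.37 (adjusted p = 0.0945), chlorophyllide a oxygenase CAO (LOC4349433) at 0.80 ± 0.34 (adjusted p = 0.167) and the magnesium chelatase subunit CHLI (LOC4333259) at 0.50 ± 0.24 (adjusted p = 0.214). In the early isoprenoid pathway that feeds phytol, DXPS (LOC4338768) (also listed as CLA1), deoxyxylulose phosphate synthase, rose 2.49-fold (adjusted p = 0.0152), the only call among 15 isoprenoid and carotenoid genes. The call did not hold without unfertilised array 3 or fertilised array 1 or 2 (adjusted p 0.0541 to 0.103) for CHLH, without unfertilised array 1 or 3 or fertilised array 1 or 2 (adjusted p 0.0521 to 0.0906) for PORB, without unfertilised array 1, 2 or 3 or fertilised array 1 or 3 (adjusted p 0.063 to 0.2) for HEMD and without unfertilised array 3 (adjusted p = 0.0723) for DXPS. HEMD was also not called after median centring (adjusted p = 0.0789) or quantile normalization (adjusted p = 0.0952), and PORB not after quantile normalization (adjusted p = 0.115).

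Of 6 genes of chlorophyll breakdown and senescence, 2 fell and 0 rose. SGR (LOC4347672), Stay-green, which takes the magnesium out of chlorophyll, read 10.14, 9.88 and 9.04 unfertilised and 8.01, 8.59 and 7.12 fertilised, a 3.44-fold fall (log2 -1.78 ± 0.37, adjusted p = 0.00829). The highest fertilised array (8.59) lay below the lowest unfertilised one (9.04), and its other probe set read -2.14 ± 0.39. RCCR1 (LOC4348519), red chlorophyll catabolite reductase, fell 2.17-fold (adjusted p = 0.0278), a call lost without unfertilised array 2 or 3 or fertilised array 1 or 3 (adjusted p 0.0754 to 0.121). The chlorophyll b reductase NYC1 (LOC4327178) was at -0.08 ± 0.22, and the senescence-associated SAG12 (LOC4324982) at 0.39 ± 0.17 and OSL2 (LOC4336983) at 0.09 ± 0.14, none of them called (smallest adjusted p = 0.175).

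Of 4 photosystem and light-harvesting genes, 3 rose (2 after quantile normalization). All 4 are also among the 6 leaf markers above, by the same probe sets, so this is not a separate observation. LHCP (LOC4333359), a chlorophyll a/b binding protein, rose 1.72-fold from 13.22, 13.65 and 13.06 to 14.08, 14.11 and 14.08 (adjusted p = 0.00595). CAB2R (LOC4324599), of the same family, rose 1.36-fold (adjusted p = 0.0158), and PSAH (LOC4339593), a photosystem I subunit, rose 1.78-fold from 12.27, 12.85 and 12.75 to 13.27, 13.47 and 13.65 (adjusted p = 0.00807). The photosystem I subunit PSAG (LOC4337812) was at 0.15 ± 0.44 (adjusted p = 0.869), while another probe set of the gene read 1.07 ± 0.30 (adjusted p = 0.0410). None of 6 Calvin cycle genes was called as deposited, and they ranged from -0.36 to 0.60. Over all fits run the list had 0 to 2 rises and 0 falls. Rubisco activase rca (LOC4351224) was at 0.60 ± 0.20 (adjusted p = 0.082). Its other probe sets, none called, read 1.27 ± 0.40, 0.79 ± 0.24 and 0.55 ± 0.21 (smallest adjusted p = 0.0557). The Rubisco small subunit RBCS (LOC4351966) was at 0.07 ± 0.09 (adjusted p = 0.677). The other RBCS probe sets read 0.71 ± 0.27, 0.65 ± 0.16 and 0.38 ± 0.12, of which 0.65 was called (adjusted p = 0.0233). CAB2R lost its call without unfertilised array 1 (adjusted p = 0.0653), after quantile normalization (log2 0.27, adjusted p = 0.0974), with the 6 PA64s arrays alone (adjusted p = 0.0996) and with all 36 arrays (adjusted p = 0.535), and its other probe set read 0.63 ± 0.14 (adjusted p = 0.0149).

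**Figure D3:**
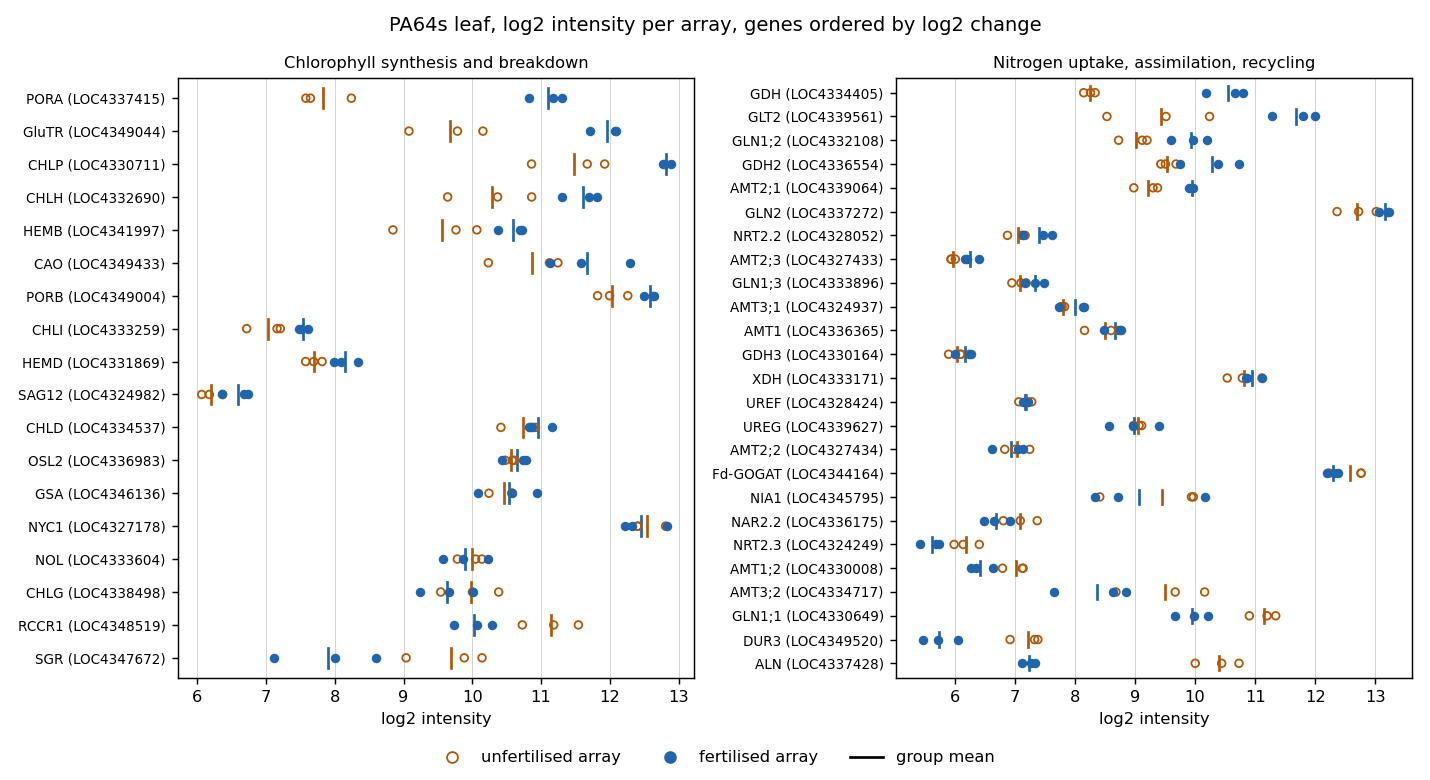
Log2 intensity (horizontal axis) in each PA64s leaf array of the 18 chlorophyll synthesis and breakdown genes measured (left) and the 25 nitrogen genes (right), ordered by log2 change from rise at the top to fall at the bottom. Open orange circles are unfertilised arrays, filled blue circles fertilised ones and ticks group means. PORA and GluTR stand at the top and SGR at the bottom on the left, GDH and GLT2 at the top and ALN at the bottom on the right.

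Glutaredoxins, small thiol oxidoreductases that use glutathione, held several of the largest rises. Of 33 glutaredoxin and thioredoxin genes measured, 6 rose and 1 fell (5 and 1 under either other scaling). GRXC15 (LOC4352426) read 7.60, 7.29 and 6.34 unfertilised and 11.40, 11.28 and 11.32 fertilised, a 19.1-fold rise (log2 4.26 ± 0.32, adjusted p = 2.66e-06). GRXC10 (LOC4351046) rose 11.9-fold from 7.84, 6.78 and 7.00 to 9.83, 11.02 and 11.49 (log2 3.57 ± 0.81, adjusted p = 0.0135), and GRXC1 (LOC4325734) rose 8.00-fold from 10.55, 9.84 and 8.58 to 12.82, 12.51 and 12.65 (adjusted p = 0.0136). GRXC15, GRXC10 and GRXC1 each varied by more than 1 log2 unit among unfertilised arrays. Among fertilised arrays GRXC15 and GRXC1 were tight, whereas GRXC10 again varied by more than 1 log2 unit. GRXS5 (LOC4326324) rose 1.88-fold (adjusted p = 0.016). Against these, GRXC7 (LOC4338050) fell 1.92-fold from 11.07, 11.37 and 11.36 to 10.23, 10.33 and 10.42 (log2 -0.94 ± 0.19, adjusted p = 0.0069). Of 22 antioxidant genes 1 rose and 1 fell (1 and 2 under either other scaling), those called as deposited both being ascorbate peroxidases, which reduce hydrogen peroxide: APX8 (LOC4329643) rose 2.27-fold (adjusted p = 0.0022), while APX7 (LOC4335896) fell 2.41-fold from 8.28, 8.22 and 8.17 to 6.84, 6.90 and 7.14 (adjusted p = 0.00013). Calls were lost without unfertilised array 2 or fertilised array 3 (adjusted p 0.0509 to 0.0671) for GRXC10, without unfertilised array 3 (adjusted p = 0.0696) for GRXC1 and without unfertilised array 2 or 3 or fertilised array 3 (adjusted p 0.0506 to 0.0573) for GRXS5.

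Of 13 phosphate genes that passed the filter, of 20 listed, 2 fell and 0 rose. SPX2 (LOC4328654), a phosphate sensor protein that restrains the phosphate starvation response, read 10.47, 9.96 and 10.17 unfertilised and 9.13, 8.68 and 7.62 fertilised, a 3.30-fold fall (log2 -1.72 ± 0.45, adjusted p = 0.0292). PHR2 (LOC4343086), the transcription factor that drives phosphate starvation genes, fell 1.51-fold (adjusted p = 0.0223), and its other probe set, not called, read -0.43 ± 0.26. The phosphate transporter Pht1;4 (LOC4335115) was at -1.40 ± 0.45 (adjusted p = 0.0684) and the sensor SPX1 (LOC4341465) at -0.37 ± 0.30 (adjusted p = 0.493). On the other side, PHR3 (LOC4328249) was at 0.71 ± 0.28 (adjusted p = 0.131). The 11 phosphate genes without a call ranged from -1.40 to 0.71, and the log2 change lay above 0 in 23.1% of the 13. Fertilised array 3 was the lowest in SPX2. The calls ended without unfertilised array 1, 2 or 3 or fertilised array 3 (adjusted p 0.0554 to 0.148) for SPX2 and without unfertilised array 1 or 2 or fertilised array 3 (adjusted p 0.0742 to 0.0999) for PHR2. Of 22 potassium and sodium transporters 1 rose and 1 fell (0 and 1 under either other scaling). The high-affinity potassium transporter HAK1 (LOC4335729), known to rise in potassium-starved rice, fell 2.76-fold from 9.02, 8.92 and 9.10 to 8.03, 7.69 and 6.93 (adjusted p = 0.0248), and HAK13 (LOC4341805) rose 2.32-fold (adjusted p = 0.0342). HAK1 lost its call without unfertilised array 1, 2 or 3 or fertilised array 3 (adjusted p 0.0578 to 0.127), and HAK13 without unfertilised array 1, 2 or 3 or fertilised array 2 or 3 (adjusted p 0.0617 to 0.104). HAK13 was not called under either other scaling.

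Of 40 iron and metal genes, 4 rose and 3 fell (3 and 4 under either other scaling). NAS3 (LOC4344361), which makes the metal chelator nicotianamine, read 5.84, 6.90 and 6.34 unfertilised and 9.58, 8.54 and 9.46 fertilised, a 7.12-fold rise (log2 2.83 ± 0.53, adjusted p = 0.00427). The metal transporter NRAMP4 (LOC4324486) rose 3.51-fold from 7.41, 7.79 and 8.35 to 9.84, 9.55 and 9.60 (adjusted p = 0.00934), and its other probe sets read 1.93 ± 0.30, 0.97 ± 0.23 and 0.34 ± 0.14, the last of them not called (adjusted p = 0.152). The zinc-family transporters ZIP4 (LOC4344937) and ZIP5 (LOC4339082) rose 2.50-fold (adjusted p = 0.0493) and 2.35-fold (adjusted p = 0.00615). IRO3 (LOC4332972), a repressor of iron-deficiency genes that is itself high in iron-poor plants, fell 2.78-fold from 8.17, 8.46 and 9.04 to 7.65, 6.33 and 7.27 (adjusted p = 0.0371). The transporters YSL12 (LOC4336442) and NRAMP2 (LOC4332012) fell 2.44-fold (adjusted p = 0.0009) and 1.75-fold (adjusted p = 0.00961). The call did not hold without unfertilised array 1, 2 or 3 or fertilised array 1, 2 or 3 (adjusted p 0.0584 to 0.185) for ZIP4 and without unfertilised array 2 or 3 or fertilised array 2 or 3 (adjusted p 0.0784 to 0.145) for IRO3, and ZIP4 was not called under either other scaling.

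Of 53 genes of starch, sucrose and sugar transport, 7 rose and 1 fell (6 and 2 after median centring, 6 and 3 after quantile normalization). Sucrose synthases, which split sucrose for growth and wall building, were 3 of the rises. SUS4 (LOC4332788) read 8.61, 8.91 and 9.21 unfertilised and 11.18, 11.52 and 11.43 fertilised, a 5.52-fold rise (log2 2.46 ± 0.49, adjusted p = 0.00615), and SUS1 (LOC4333062) and SUS5 (LOC4335447) rose 2.41-fold (adjusted p = 0.0192) and 2.09-fold (adjusted p = 0.00805). The cell wall invertase CIN1 (LOC4329561), which splits sucrose outside the cell, rose 2.37-fold from 9.24, 9.04 and 8.78 to 10.54, 10.35 and 9.93 (adjusted p = 0.00342). Granule-bound starch synthase GBSS1 (LOC4340018), the amylose enzyme Waxy, fell 2.12-fold from 7.46, 6.94 and 7.37 to 6.15, 6.09 and 6.29 (adjusted p = 0.00688), while its other probe sets read -0.07 ± 0.19, -0.21 ± 0.13 and -0.65 ± 0.28 and were not called (smallest adjusted p = 0.175). SUS1 lost its call without unfertilised array 2 or 3 or fertilised array 3 (adjusted p 0.0554 to 0.0898). The median of the 53 genes was 0.05 and turned to -0.02 after median centring and to -0.03 after quantile normalization.

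Of 22 aquaporins, membrane channels for water and small solutes, 4 rose and 0 fell (3 and 0 under either other scaling). The vacuolar TIP2;2 (LOC4340941) rose 3.25-fold from 11.04, 11.50 and 11.64 to 13.08, 12.99 and 13.22 (log2 1.70 ± 0.29, adjusted p = 0.00276). The plasma membrane channels PIP2;2 (LOC4330049) and PIP1;1 (LOC4330248) rose 2.34-fold (adjusted p = 0.0206) and 1.51-fold (adjusted p = 0.0483), and the fourth was Lsi1. Of 38 cell wall expansion genes that passed the filter, of 61 listed, 3 rose and 0 fell (2 and 0 under either other scaling). Their median was 0.31. The xyloglucan enzyme gene XTH8 (LOC4345019) rose 4.01-fold from 6.94, 7.64 and 7.95 to 8.68, 9.17 and 10.69 (adjusted p = 0.00882, and 0.0587 with the 6 PA64s arrays alone), and the expansin family genes EXLA2 (LOC4349265) and EXP1 (LOC4335222) rose 3.92-fold (adjusted p = 0.0242) and 2.94-fold (adjusted p = 0.034). Of 42 cell cycle and replication genes that passed the filter, of 64 listed, 5 rose and 0 fell as deposited. After median centring 3 rose and 0 fell, and after quantile normalization 2 rose and 1 fell. Genes of DNA replication were among those below the filter, which were not tested. Examples of the rises were the kinase CDKF-3 (LOC4334774), from 7.96, 8.08 and 7.90 to 8.85, 8.84 and 8.86 (adjusted p = 0.00171), and the D-type cyclin CYCD6-1 (LOC4343569), 1.73-fold (adjusted p = 0.0379). Calls were lost without unfertilised array 3 or fertilised array 1 or 3 (adjusted p 0.0756 to 0.0986) for PIP2;2, without unfertilised array 1, 2 or 3 or fertilised array 1 or 3 (adjusted p 0.071 to 0.178) for PIP1;1, without unfertilised array 1, 2 or 3 or fertilised array 2 or 3 (adjusted p 0.0584 to 0.11) for EXLA2, without unfertilised array 1, 2 or 3 or fertilised array 1, 2 or 3 (adjusted p 0.0511 to 0.104) for EXP1 and without unfertilised array 1 or 2 or fertilised array 1, 2 or 3 (adjusted p 0.0529 to 0.152) for CYCD6-1, and PIP1;1, EXP1 and CYCD6-1 were not called under either other scaling.

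**Figure D4:**
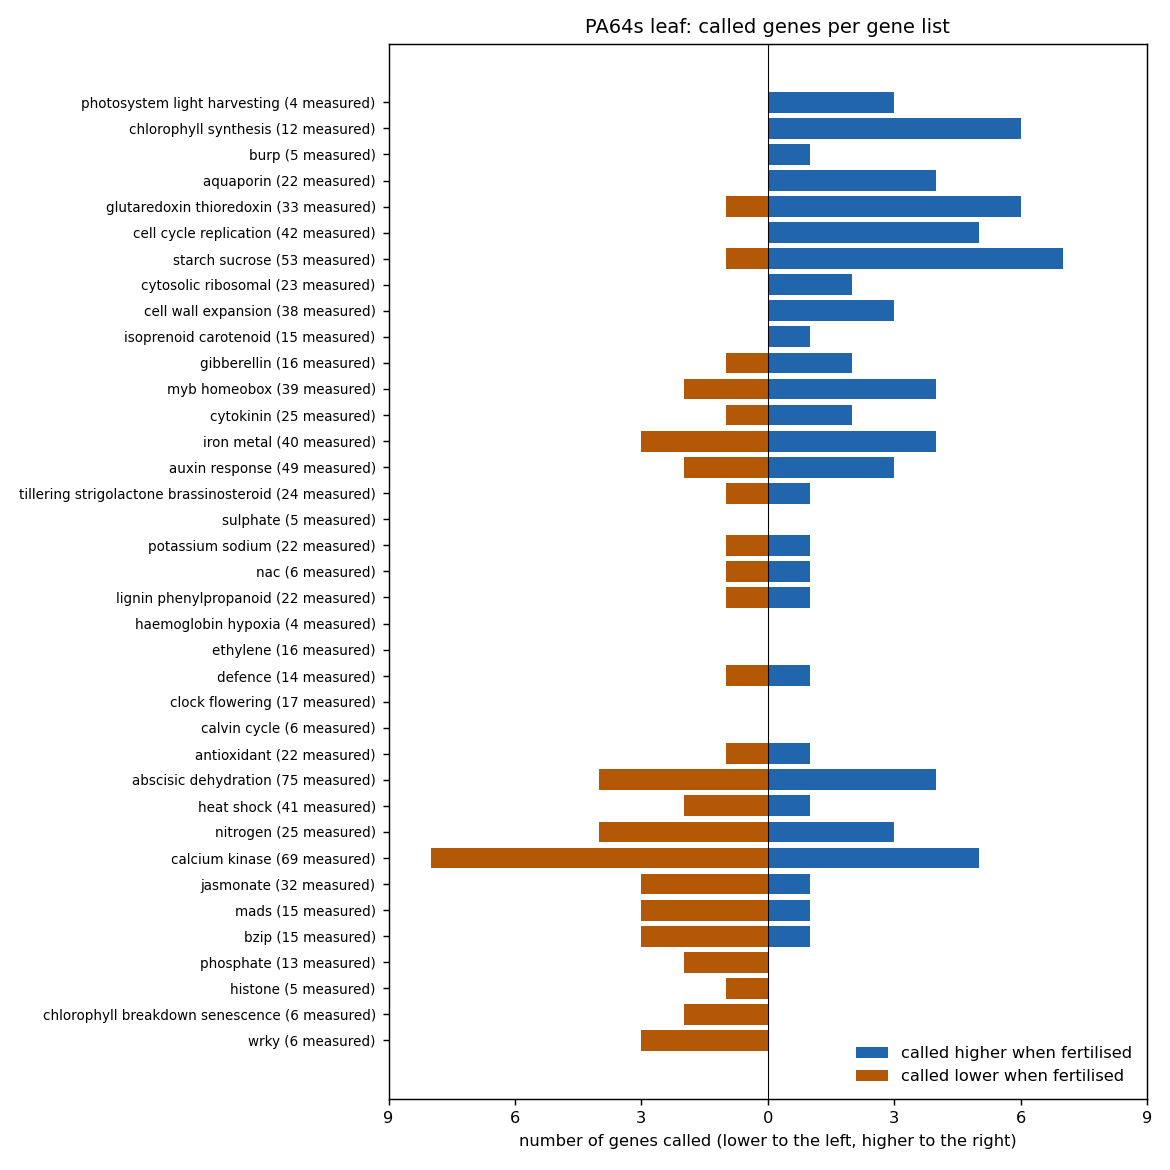
Number of genes called higher (blue, to the right) and lower (orange, to the left) in fertilised PA64s leaf for each gene list, with the number measured in brackets. Chlorophyll synthesis (6 of 12), aquaporins (4 of 22) and cell cycle genes (5 of 42) had rises only in the values as deposited (cell cycle genes 2 rises and 1 fall after quantile normalization), and WRKY (3 of 6), phosphate (2 of 13) and chlorophyll breakdown genes (2 of 6) had falls only.

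Of 6 WRKY factors, which act mostly in defence and senescence, 3 fell and 0 rose (4 and 0 under either other scaling). WRKY62 (LOC4347070) read 8.48, 7.40 and 7.21 unfertilised and 6.41, 5.83 and 5.25 fertilised, a log2 change of -1.87 ± 0.39 (adjusted p = 0.00817). WRKY76 (LOC4347069), like WRKY62 a known repressor of rice defence, read 8.22, 8.23 and 7.22 and 6.28, 6.55 and 5.27 (log2 -1.86 ± 0.48, adjusted p = 0.0273). In both genes the highest fertilised array stayed below the lowest unfertilised one by less than 1 log2 unit. Fertilised array 3 lay below the filter level in both (5.25 in WRKY62, 5.27 in WRKY76). WRKY24 (LOC4327518) fell 1.66-fold (adjusted p = 0.0122). The other members, WRKY71 (LOC4328512), WRKY51 (LOC4335388) and WRKY9 (LOC4343736), were at -0.71, -0.34 and -0.31 (smallest adjusted p = 0.102). The calls ended without unfertilised array 1 or 2 or fertilised array 3 (adjusted p 0.0841 to 0.136) for WRKY76 and without unfertilised array 2 or fertilised array 3 (adjusted p 0.0506 to 0.0541) for WRKY24.

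Of 15 bZIP factors 1 rose and 3 fell, and the 3 that fell were TGA-like factors, relatives of the TGA factors that in Arabidopsis bind plant-specific glutaredoxins. TGAL6 (LOC9270267) read 9.06, 9.66 and 9.79 unfertilised and 7.81, 8.20 and 8.20 fertilised (log2 -1.44 ± 0.22, adjusted p = 0.00116). TGAL8 (LOC4341530) and TGAL7 (LOC4346610) fell 2.59-fold (adjusted p = 8.09e-05) and 1.95-fold (adjusted p = 0.00373). The fertilised arrays of TGAL8 (5.75, 6.04 and 5.83) lay near the filter level. All 3 kept their calls when any array was left out. The fourth bZIP call was a rise of BZIP02 (LOC4325565) (1.47-fold, adjusted p = 0.0256), lost without unfertilised array 2 or 3 or fertilised array 1 or 2 (adjusted p 0.0611 to 0.111).

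Of 15 MADS-box factors that passed the filter, of 31 listed, 3 fell and 1 rose (4 and 1 under either other scaling). MADS57 (LOC4330621), known in rice for promoting tillers and for repressing the strigolactone receptor gene D14, fell 3.31-fold from 9.08, 9.06 and 8.90 to 7.22, 7.31 and 7.34 (log2 -1.72 ± 0.16, adjusted p = 1.63e-05). D14 (LOC4331983), the strigolactone receptor, which restrains tillering, rose 2.52-fold from 11.33, 11.68 and 11.58 to 12.82, 12.84 and 12.93 (log2 1.33 ± 0.23, adjusted p = 0.00312). Both genes were tight within groups and kept their calls in every fit run. D53-L (LOC4351252), named for its likeness to D53, the strigolactone repressor protein, fell 3.31-fold from 11.48, 12.39 and 12.40 to 10.78, 10.23 and 10.09 (adjusted p = 0.0112), and its other probe set, not called, read -0.49 ± 0.30. MADS57 and D14 were the only calls among 24 genes of tillering, strigolactone and brassinosteroid. MADS26 (LOC4344493) was at -1.24 ± 0.22 (adjusted p = 0.00294), with its fertilised group below the filter level. D53-L lost its call without unfertilised array 3 or fertilised array 3 (adjusted p 0.0513 to 0.0552).

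The heat shock factor HSF10 (LOC4339409) (also listed as HSFA4D and SPL7, a lesion-mimic locus) fell 3.02-fold from 9.56, 8.73 and 7.76 to 6.89, 7.56 and 6.81 (adjusted p = 0.0201). Of 41 heat shock genes 1 rose and 2 fell. Of 39 MYB and homeobox genes 4 rose and 2 fell: HOX4 (LOC4347333) and HOX15 (LOC4347946) rose 1.97-fold (adjusted p = 0.00515) and 1.97-fold (adjusted p = 0.0221), while myb17 (LOC4352559) fell 3.12-fold (adjusted p = 0.0228). Of 6 NAC genes 1 rose and 1 fell (1 and 2 under either other scaling): NAC45 (LOC4349650) rose 3.34-fold from 6.24, 6.14 and 5.75 to 7.84, 8.58 and 6.93 (adjusted p = 0.00612), and NAC048 (LOC4325006) (also listed as SNAC2), a stress factor, fell 1.44-fold (adjusted p = 0.0454), with another probe set, not called, at -0.60 ± 0.19. AGO18 (LOC4343201), an Argonaute protein of rice antiviral defence, fell 2.76-fold from 8.17, 7.91 and 7.52 to 6.20, 7.03 and 5.98 (log2 -1.46 ± 0.23, adjusted p = 0.00132). The 20 largest named falls also held XBOS31 (LOC4324295), of an ankyrin-repeat ubiquitin ligase family, from 7.25, 7.96 and 7.80 to 6.20, 6.24 and 6.28 (adjusted p = 0.00104), and cap2 (LOC4331843), from 7.15, 7.11 and 7.12 to 5.59, 6.10 and 5.66 (adjusted p = 0.000702). The fertilised arrays of cap2 lay near or below the filter level. The call did not hold without unfertilised array 1 or 2 or fertilised array 1 or 3 (adjusted p 0.0581 to 0.0882) for HSF10, without unfertilised array 1 or fertilised array 2 or 3 (adjusted p 0.0614 to 0.0842) for HOX15, without unfertilised array 1, 2 or 3 or fertilised array 2 or 3 (adjusted p 0.0507 to 0.104) for myb17 and without unfertilised array 2 or 3 or fertilised array 1 or 3 (adjusted p 0.124 to 0.158) for NAC048.

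Hormone genes gave few calls in each list. The auxin response factor ARF16 (LOC4327785, also listed as ARF1) fell 3.36-fold from 8.44, 8.76 and 9.14 to 6.97, 7.08 and 7.04 (log2 -1.75 ± 0.28, adjusted p = 0.00156). The annotation gives the name IAA1 to more than 1 auxin repressor gene: LOC4334069, also listed as IAA13, fell by 1.09 ± 0.17 (adjusted p = 0.00137), and LOC4323871 rose by 1.35 ± 0.35 (adjusted p = 0.026) on the log2 scale. Of 49 auxin genes 3 rose and 2 fell (3 and 3 under either other scaling). Of 25 cytokinin genes 2 rose and 1 fell (2 and 2 under either other scaling): LOGL6 (LOC4336417) and LOGL7 (LOC4339472), of the LOG family that releases active cytokinin, were higher by 1.90 ± 0.29 (adjusted p = 0.00113) and 0.80 ± 0.17 (adjusted p = 0.00937), and the B-type response regulator RR24 (LOC4328516) fell by 0.70 ± 0.13 (adjusted p = 0.00395). The unfertilised group of LOGL6 lay on average below the filter level, and the other probe set of LOGL7 read 0.004 ± 0.12 (adjusted p = 0.988). Of 16 gibberellin genes 2 rose and 1 fell (2 and 3 after quantile normalization). GA20OX2 (LOC4325003), the semi-dwarf gene SD1 that makes gibberellin precursors, rose 2.98-fold from 6.87, 6.17 and 5.67 to 8.21, 7.61 and 7.61 (adjusted p = 0.00373), and the kaurenoic acid oxidase KAO (LOC4339885) was higher by 1.23 ± 0.22 (adjusted p = 0.00358), with all unfertilised arrays below the filter level. GAMYB (LOC4327362) fell 1.42-fold (adjusted p = 0.0132). The LOC4323871 call was lost without unfertilised array 1, 2 or 3 or fertilised array 1 or 3 (adjusted p 0.0501 to 0.134), and that of GAMYB without unfertilised array 3 or fertilised array 1 or 3 (adjusted p 0.0522 to 0.0619).

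Of 32 jasmonate genes 1 rose and 3 fell (1 and 4 after quantile normalization). The allene oxide cyclase aoc (LOC4333201) rose 1.88-fold from 10.57, 10.70 and 10.32 to 11.55, 11.35 and 11.42 (adjusted p = 0.000309). The jasmonate repressor JAZ7 (LOC4343899) and the reductases OPR10 (LOC4340486) and OPR5 (LOC4340485) fell by 1.14 (adjusted p = 0.0397), 1.17 (adjusted p = 0.00959) and 0.81 (adjusted p = 0.00523) on the log2 scale. The fertilised arrays of OPR5 all lay below the filter level, and its call was lost with all 36 arrays (adjusted p = 0.151). Of 75 abscisic acid and dehydration genes 4 rose and 4 fell (1 and 5 under either other scaling). The dehydrin RAB21 (LOC4350454) read 6.47, 7.41 and 8.03 unfertilised and 10.37, 12.20 and 8.05 fertilised (log2 2.90 ± 0.82, adjusted p = 0.0414). Fertilised array 3 was level with the highest unfertilised array, and fertilised array 2 lay far above. The SnRK2 kinases SAPK1 (LOC4333017) and SAPK6 (LOC4329630) fell 1.99-fold (adjusted p = 0.0399) and 1.45-fold (adjusted p = 0.0252), and SAPK3 (LOC4349411) rose 1.66-fold (adjusted p = 0.00602, and 0.0607 with the 6 PA64s arrays alone). Calls were lost without unfertilised array 1, 2 or 3 or fertilised array 1 or 2 (adjusted p 0.0625 to 0.136) for RAB21, without unfertilised array 1 or 2 or fertilised array 1, 2 or 3 (adjusted p 0.065 to 0.137) for JAZ7, without fertilised array 3 (adjusted p = 0.0559) for OPR10, without unfertilised array 1 or 2 or fertilised array 2 or 3 (adjusted p 0.0635 to 0.181) for SAPK1 and without unfertilised array 1, 2 or 3 or fertilised array 3 (adjusted p 0.0603 to 0.131) for SAPK6. RAB21 was not called under either other scaling.

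Of 69 calcium sensors and calcium-linked kinases 5 rose and 8 fell as deposited, 4 and 9 after median centring, and 3 and 11 after quantile normalization. CIPK14 (LOC4351307), a kinase driven by calcineurin B-like calcium sensors, read 8.00, 7.88 and 7.18 unfertilised and 12.31, 11.22 and 10.97 fertilised, a 14.1-fold rise (log2 3.81 ± 0.40, adjusted p = 6.33e-05). In the opposite direction CIPK2 (LOC4344287) fell 2.73-fold from 10.45, 10.21 and 9.37 to 8.95, 8.73 and 7.99 (adjusted p = 0.0445) and CIPK23 (LOC4342410), which activates the potassium channel AKT1, fell 1.69-fold (adjusted p = 0.00966). The calcium-dependent kinase CPK1 (LOC4326638) rose 1.98-fold (adjusted p = 0.00261) and CPK13 (LOC4336783) fell 1.74-fold (adjusted p = 0.0471). Further probe sets, none called, read -0.92 ± 0.30 for CIPK2, -0.41 ± 0.15 for CIPK23 and -0.20 ± 0.27 for CPK13. The calls ended without unfertilised array 1 or 2 or fertilised array 1, 2 or 3 (adjusted p 0.0535 to 0.192) for CIPK2, without fertilised array 3 (adjusted p = 0.0577) for CIPK23 and without unfertilised array 2 or 3 or fertilised array 1, 2 or 3 (adjusted p 0.0652 to 0.188) for CPK13. Of 14 defence genes RBBI3.3 rose and NH1 (LOC4327315), the rice form of the salicylate co-activator NPR1, fell 1.65-fold (adjusted p = 0.0413), a call lost without unfertilised array 1, 2 or 3 or fertilised array 1 or 3 (adjusted p 0.0549 to 0.128). Lignin and phenylpropanoid genes, 22 measured, gave 1 rise and 1 fall, with a median of 0.48. The log2 change lay above 0 in 77.3% of them, against 53.6% of all genes. Members without a call ranged from -0.60 to 3.06 (smallest adjusted p = 0.0540). Over all fits run the list had 1 to 7 rises and 0 to 2 falls, and 8 of its genes were called in 9311 and 8 in LYP9. Chalcone synthase CHS (LOC4350636), the entry to flavonoids, rose 2.74-fold from 10.81, 10.99 and 10.54 to 12.44, 11.61 and 12.65 (adjusted p = 0.00311), and of its other probe sets, at 1.99 ± 0.39, 0.45 ± 0.34, 0.42 ± 0.37 and 0.29 ± 0.23, 1 was called.

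No gene was called among 16 ethylene, 17 clock and flowering, 5 sulphate and 4 haemoglobin and hypoxia genes in limma as deposited (1 clock gene fell under either other scaling). The smallest adjusted p in these lists were 0.136, 0.0948, 0.163 and 0.194. Their log2 changes ranged from -0.26 to 0.76, from -0.83 to 0.64, from -0.34 to 0.79 and from -0.81 to 0.17. These p-values do not show that the genes kept their level. Among 23 genes of cytosolic ribosomal proteins there were 2 rises and 0 falls (1 and 0 under either other scaling), with a median of 0.15, which was 0.07 after median centring. Of 5 histone genes 1 fell.

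Some calls named above were lost under other alternatives too. The calls of AMT1;2, CIPK2, CPK13, HEMD, JAZ7, NAC048, NH1, PIP1;1, RAB21, SAPK1 and ZIP4 also ended without a filter (adjusted p 0.0509 to 0.0641). The calls of AMT1;2, BZIP02, CRSH2, CYCD6-1, GAMYB, GER5, HEMD, HSF10, LOC4323871, IRO3, NAC048, OPR10, PHR2, PIP1;1, PORB, RAB21, SAPK1, SAPK6 and SUS1 also ended with the 6 PA64s arrays alone (adjusted p 0.0503 to 0.13). The calls of AMT1;2, BZIP02, CYCD6-1, PIP1;1 and PORB also ended with all 36 arrays (adjusted p 0.0571 to 0.23). The calls of HEMD, PIP1;1 and ZIP4 also ended in the trended robust fit (adjusted p 0.0501 to 0.0559). The call of CPK13 also ended after median centring (adjusted p = 0.0503). The call of ZIP4 also ended with an offset of 16 (adjusted p = 0.0568).

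The PA64s response was set beside those of the other genotypes, which share no arrays with it. In 9311 leaf 7.96% of the probe sets were called higher and 3.97% lower, and in LYP9 leaf 6.20% and 2.65%. Of the 1720 called higher in PA64s, 1155 were also called higher in 9311, which is 67.2% of the PA64s calls and 42.3% of the 2731 in 9311. For LYP9 the number was 1054, which is 61.3% of the PA64s and 49.6% of the 2127 LYP9 calls. Of the 932 called lower in PA64s, 554 were also lower in 9311 (59.4%, and 40.7% of the 1362 there) and 461 in LYP9 (49.5%, and 50.7% of the 910 there). Another 374 rises (21.7%) and 285 falls (30.6%) of PA64s were called in the same direction in neither other genotype. Among these the difference between genotypes was itself called for 1 rise (LOC4336903) and 1 fall (OsAffx.26254.1.S1_at). Both of these probe sets were called in the opposite direction in 9311 and in LYP9.

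Of the 20 largest named rises 17 were also called in both other genotypes, and of the 20 largest named falls 10 were. All 20 rises had the same sign in the 3 genotypes, as had 18 of the falls. ALN changed by -3.15 in PA64s, -3.44 in 9311 and -3.30 in LYP9, and MADS57 by -1.72, -1.81 and -1.63. BURP2 changed by 4.92, 5.04 and 4.06 in the same order, and PORA by 3.28, 2.89 and 2.23. GLT2 was at 2.26 in PA64s, and at 0.97 (adjusted p = 0.32) in 9311 and 0.76 (adjusted p = 0.47) in LYP9. Pi21 was at 2.45, 1.13 and 1.19, and IAA1 (LOC4323871) at 1.35, -0.67 and -0.07. AGO18 was at -1.46 in PA64s, 0.20 in 9311 and -0.10 in LYP9, and HSF10 at -1.59, -0.41 and 0.37. None of these differences passed the test across all probe sets: the smallest adjusted p of a difference from 9311 among the named genes was 0.135, for AGO18, and the genes named here were picked after their values were seen. AGO18 itself differed from 9311 by -1.67 and from LYP9 by -1.37 on the log2 scale.

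**Figure D5:**
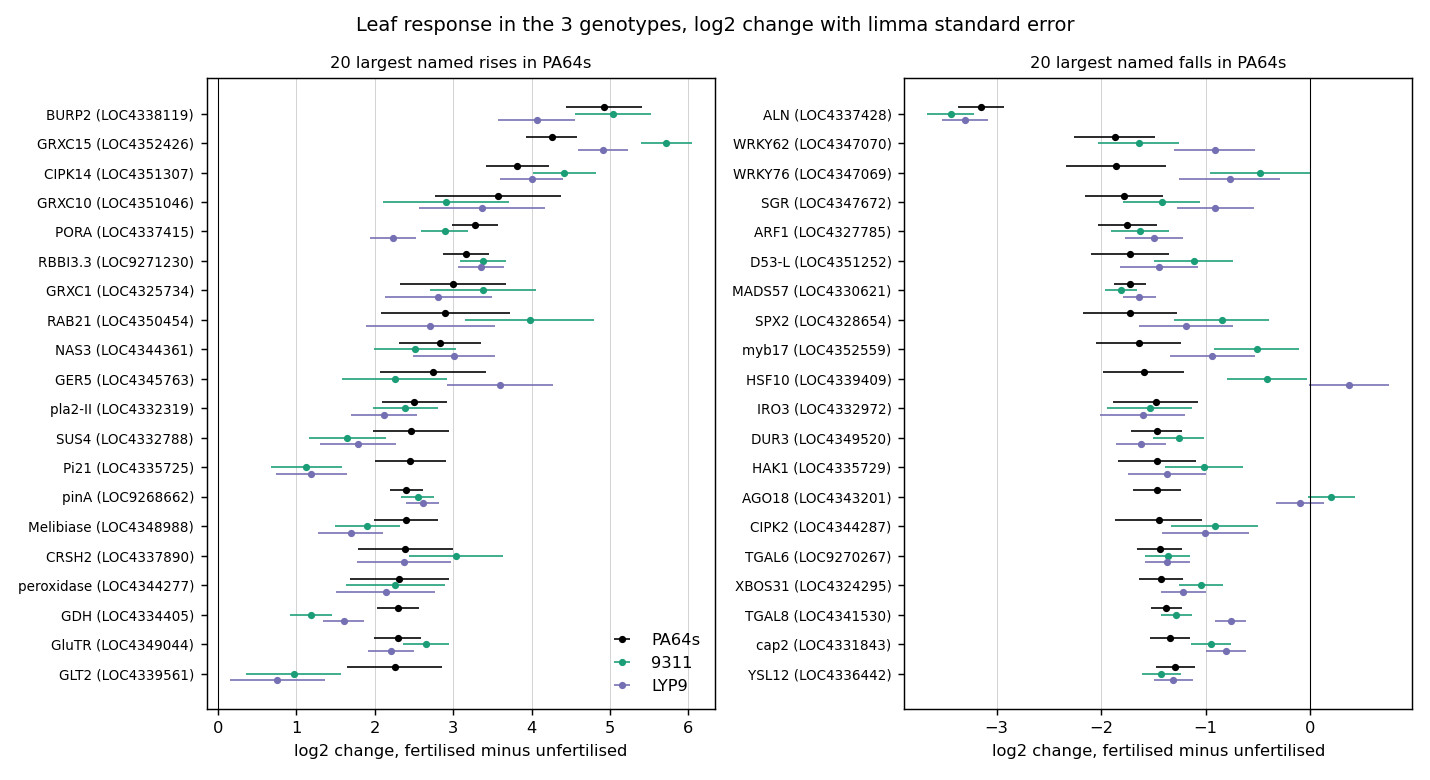
Log2 change between fertilised and unfertilised leaf (horizontal axis) in PA64s (black), 9311 (green) and LYP9 (violet) for the 20 largest named rises (left) and falls (right) of PA64s, each 1 point with its limma standard error as a bar. The 3 genotypes lie close for ALN, MADS57 and BURP2, and AGO18 and HSF10 lie below 0 in PA64s with at least 1 other genotype at or above 0.

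The test of the difference in response was passed by 6 probe sets between PA64s and 9311 (0.0175% of those tested, 1169 at an unadjusted p under 0.05) and by 0 between PA64s and LYP9 (0%, 725 at an unadjusted p under 0.05). None of the 6 belongs to a gene with a name. LOC4350133 fell in PA64s from 10.16, 10.09 and 9.60 to 6.89, 6.82 and 5.92, whereas in 9311 it read 3.55, 3.52 and 3.54 unfertilised and 3.37, 3.30 and 3.74 fertilised, below the filter level on every array. In LYP9 it fell by 2.66 ± 0.27. LOC4336903 rose in PA64s by 0.67 ± 0.15 and fell in 9311 by 0.72 ± 0.15, a difference of 1.40 ± 0.21 (adjusted p = 0.0334). In LYP9 it was at -0.61 ± 0.15 (adjusted p = 0.0182). Its unfertilised PA64s arrays (5.98, 5.90 and 5.56) lay near the filter level. LOC4335838 was at -0.13 ± 0.22 in PA64s, where all arrays lay below the filter level, and at 2.06 ± 0.22 in 9311. In LYP9 it was at 1.25 ± 0.22 (adjusted p = 0.00253).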

How the data were processed

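RNA abundance was measured on 36 Affymetrix rice arrays. RNA was taken with Trizol, purified on a plant RNA column and labelled with biotin as complementary RNA, per the labels' protocols. The values the authors deposited are intensities on a linear scale, none below 1. RMA and affy are named in the submitters' processing notes without a role or version, and the sources used here do not give the scaling. All intensities were taken to log2 a single time and not scaled again. A log2 change is the mean of the 3 fertilised arrays minus that of the 3 unfertilised ones, folds are its antilog, and errors are limma standard errors.

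After removal of 187 control or reporter probe sets, the upper 60% of the 57194 others by mean log2 value over the 18 leaf arrays (above 5.75) were kept. A mean per leaf group was fitted with limma 3.58.1 in R 4.3.3 (lmFit, eBayes, 2-sided, 12 residual and 3.87 prior degrees of freedom), with all 18 leaf arrays sharing the spread. A call needed an adjusted p under 0.05 (Benjamini-Hochberg, across the 34316 probe sets tested). Number of arrays limits the precision.

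Gene names came from the platform annotation and RefSeq gene table (assembly ASM3414082v1), and no coordinates were used. Of the 57194 probe sets, 22436 have 1 gene, 95 several and 34663 are not listed. A gene counted as named where its symbol or a synonym was not a locus number, since nearly all symbols proved to be locus numbers. Each gene is represented by its brightest probe set over the leaf arrays. Named in the text are the 20 largest rises and 20 largest falls among called named genes whose arrays did not overlap, up to 4 called genes per direction of each list, and uncalled members of the chlorophyll, nitrogen, phosphate, WRKY and tissue marker lists. Members of 39 gene lists were matched by symbol, and mismatched symbols were dropped by hand. The members and lists were chosen with earlier results of these data known.

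The PA64s response was tested as fertilised minus unfertilised, and against 9311 and LYP9 as a difference of responses. Replicate numbers occur in both groups. Deviations of same-numbered arrays correlated at 0.305, 0.00957 and 0.307, and those of differently numbered arrays at -0.368 to 0.0398. A shared effect of the replicate number is thus not excluded. The labels do not say that the numbers pair the arrays, and the main fit left them unpaired. With a replicate block, 4208 probe sets were called, among them all 2652 of the main fit. Alternatives were median centring, quantile normalization, no filter, an upper 40% filter, log2 of the value plus 16, a trended robust fit, a replicate block, the 6 PA64s arrays alone, all 36 arrays in 1 fit and leaving out each PA64s leaf array.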

Additional observations from a re-analysis of the deposited data

Results flagged for a closer look

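The response to fertiliser differed between PA64s and 9311 by the test of the difference for 6 probe sets, and each is given with its difference, PA64s minus 9311, on the log2 scale. For LOC4350133 (Os.4192.1.S1_at) it was -3.34 ± 0.38 (adjusted p = 0.00601), with 9311 below the filter level in both states. For LOC4336903 (Os.51755.1.S1_at) it was 1.40 ± 0.21 and for LOC4335838 (Os.53777.1.S1_at) -2.19 ± 0.31. LYP9 was at -0.61 for LOC4336903 and at 1.25 for LOC4335838. The remaining probe sets have no gene in the annotation. Os.26822.1.S1_at differed by -3.52 ± 0.44 (adjusted p = 0.00974), at -0.14 in PA64s, 3.38 in 9311 and 2.44 in LYP9. Os.28949.1.S1_at differed by -1.82 ± 0.26, at -1.73 in PA64s, 0.09 in 9311 and -2.13 in LYP9, and its 9311 arrays lay between 5.60 and 5.98. OsAffx.26254.1.S1_at differed by -2.62 ± 0.38, at -1.25 in PA64s, 1.37 in 9311 and 0.95 in LYP9. No outlier test was made, since each group has 3 arrays.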

How the results depend on the processing

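The count of PA64s leaf calls, 2652, stayed within 1.5 times of itself under both other scalings (2566 and 2757), no filter (2667), the upper 40% filter (2118), the offset of 16 (2648) and the trended robust fit (2597). It was 1610 with the 6 PA64s arrays alone (1059 higher, 551 lower) and 4072 with all 36 arrays (2741 higher), where the fits have fewer and more degrees of freedom. With a replicate block it was 4208 (2760 higher, 1448 lower), and the difference from 9311 then had 10 calls. The falls numbered 1486 after quantile normalization. Leaving out 1 array gave 1160 to 2300 calls, 761 to 1642 rises and 399 to 699 falls, from fits with fewer arrays. Without fertilised array 3, 1108 of the 1160 calls were also calls of the full fit. For the difference from 9311, 6 as reported, the trended robust fit called 11, and leaving out 1 array gave 2 to 10. For the difference from LYP9, 0 as reported, leaving out 1 array gave 0 to 4.

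Of 125 called named genes recomputed, 58 kept their call in every alternative they were run in (46 in all 15, and 12 in the 14 other than the upper 40% filter, which they did not pass), 62 lost it on leaving out some array, 44 under some other alternative, and 0 changed sign. Among uncalled genes, RBCS (LOC4351966) turned to -0.0075 after median centring and -0.036 after quantile normalization, and OSL2 (LOC4336983) to -0.027 and XDH (LOC4333171) to -0.0021 after the latter. Leaving out 1 array moved XDH between -0.0082 and 0.28, PSAG (LOC4337812) between -0.30 and 0.48 and NYC1 (LOC4327178) between -0.27 and 0.052. The causes were not tested. The array scaling, the time of harvest and the origin of the replicates are not known, and falls to near the filter level are limited by signal over background, which was not analysed here.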
